A study of Rattus norvegicus with 20 samples.

Results

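Core clock genes were described here in the livers of 20 rats of the Zucker strain. The housing notes, shared by all samples, call the animals male ZDF (Zucker diabetic fatty) rats, while the methods keep that name for the diabetes-prone animals and set the lean controls apart from them. In obese ZDF rats, loss of leptin receptor function leads to obesity and diabetes. The 7 genes were Bmal1 (also called Arntl), Npas2, Clock, Cry1, Nfil3, Dbp and Per3, chosen by symbol out of 14557 genes that the array named by a single symbol. All 7 were among the 9481 genes that passed the filter on low values (above the middle of the array's probe sets in at least 5 arrays), and each was read by 1 probe set. There were 4 groups of 5 rats, with 1 Affymetrix Rat Gene array per rat. They were rats given rosiglitazone, an insulin sensitiser that activates PPARgamma, rats given resveratrol, a plant polyphenol, obese rats kept on a stock diet for 6 weeks, and lean control rats kept on standard chow. All animals were housed singly with free food under a reversed cycle of 12 h light and 12 h dark. For the treated rats no dose, duration or body type is stated, and the hour at which each liver was taken is not stated either in the labels or methods used here. The labels call the 5 rats of a group biological replicates, so the errors below are between animals.

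The clock of a liver cell is a feedback loop of transcription. BMAL1 pairs with CLOCK or its relative NPAS2 and switches on genes that carry E-boxes, among them the Per and Cry genes, whose proteins return to inhibit that pair, and Dbp, a transcription factor that drives output genes through D-boxes. NFIL3 binds the same D-boxes as a repressor, and a second loop, in which ROR factors activate and REV-ERB factors repress, acts on Bmal1 itself and on genes such as Npas2, Clock, Cry1 and Nfil3. In liver the mRNAs of Bmal1 and of Dbp and Per3 are known to peak at opposite phases of the day.

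The RefSeq annotation of rat assembly GRCr8 places Dbp on chromosome 1 (105312256 to 105317205) and Bmal1 on chromosome 1 as well (176766222 to 176864741), Per3 on chromosome 5, Cry1 on chromosome 7, Npas2 on chromosome 9, Clock on chromosome 14 and Nfil3 on chromosome 17. The sources used here do not name the assembly behind the array annotation, and GRCr8 served for names, positions and promoters only. RefSeq promoter windows, from 250 bases before to 50 bases after a transcript start, were found for 6 of the 7 genes. The Bmal1 stretch before the start is shown because Bmal1 varied most between rats and is among the genes on which the second loop acts. It lies at chr1:176766078-176766327 on the plus strand of GRCr8, and capitals mark matches to the core of the element that ROR and REV-ERB factors bind.

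Bmal1: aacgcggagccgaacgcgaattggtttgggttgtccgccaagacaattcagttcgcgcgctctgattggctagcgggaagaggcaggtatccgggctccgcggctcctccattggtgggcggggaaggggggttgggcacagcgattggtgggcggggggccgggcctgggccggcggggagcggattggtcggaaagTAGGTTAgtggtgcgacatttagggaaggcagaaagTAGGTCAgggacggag

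The letters TAGGTCA begin 16 bases before the transcript start of this window and TAGGTTA begins 52 bases before it. That start follows base 176766327 and so lies inside the Bmal1 gene span, which begins at 176766222. Both matches thus lie within the span, and the distances hold for this transcript only. Searched on both strands, TAGGTCA was in 2.63% and TAGGTTA in 1.61% of 33469 rat promoters of the same length. No window of the other genes held either of them, an E-box (CACGTG, in 6.42% of promoters, or CACGTT, in 4.83%) or a D-box (TTATGTAA or TTACGTAA, in 1.01%). The letters were set after the sequences had been read, and a match or its absence in these windows is a description only.

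The deposited values are log2 expression, on which a difference of 1 is a doubling of signal, and array medians lay between 2.36 and 2.53. Values near these medians are compressed, which touches Npas2 and the lowest Bmal1 livers and may touch the lowest Per3 livers. Levels were not compared between genes. Pairwise correlations of arrays ran between 0.947 and 0.982 over the tested genes. On the first principal component of those genes the obese rats ran from −2.87 to 12.8, and lean control rat 3 lay among them (0.81), apart from the other lean control rats (−27.9 to −10.2). Hepatocyte markers averaged 11.1 in rosiglitazone, 11.1 in resveratrol, 11.1 in obese and 11.2 in lean control livers (4 genes), and 0 of 4 changed in any comparison by limma (1 had an unadjusted p under 0.05 in rosiglitazone against obese and 1 in rosiglitazone against lean control livers). Of the lymphocyte markers, 0 of 3 passed the filter.

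Bmal1, whose protein is part of the activating pair, spread over 4.04 log2 units among the 20 livers. The low end, lean control rat 1, lay at −0.0978 relative to the median of its array, where values are compressed, so no fold is given for this range. Its level was 3.41, 2.84, 6.47, 5.05 and 5.32 in rosiglitazone rats 1 to 5 and 5.83, 3.47, 3.80, 6.33 and 3.99 in resveratrol rats 1 to 5. It was 6.43, 4.41, 3.21, 3.07 and 5.30 in obese rats 1 to 5, against 2.43, 5.91, 4.75, 2.54 and 2.79 in lean control rats 1 to 5. Every group held livers with high Bmal1 (above 5.9) and livers with low Bmal1 (below 3.5), and the 4 groups overlapped. Sorted by Bmal1, neighbouring livers were never more than 0.51 apart, so the livers formed no separate clusters.

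Clock, the partner of BMAL1, spread over 1.48 log2 units (2.79-fold). Its level was 6.18, 6.02, 7.13, 6.83 and 6.73 in rosiglitazone rats 1 to 5 and 7.01, 6.21, 6.35, 7.06 and 6.80 in resveratrol rats. It was 6.94, 6.55, 6.14, 6.01 and 6.86 in obese rats, against 6.13, 6.86, 6.66, 5.77 and 5.65 in lean control rats. The livers with the highest Clock in each group (rosiglitazone rat 3, resveratrol rat 4, obese rat 1 and lean control rat 2) were also those with the highest Bmal1. Npas2, which can stand in for CLOCK, reached 4.56 in resveratrol rat 4 and 4.50 in obese rat 1, while the other 18 livers lay between 2.48 and 4.003. Rosiglitazone livers held 2.48 to 3.86, resveratrol livers 2.87 to 4.56, obese livers 2.82 to 4.50 and lean control livers 2.70 to 3.63, so the groups overlapped.

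Cry1, a repressor of the activating pair, spread over 1.44 log2 units (2.71-fold). Its level was 4.65, 4.31, 5.56, 5.51 and 4.65 in rosiglitazone rats 1 to 5 and 5.28, 5.00, 4.64, 5.61 and 4.62 in resveratrol rats. It was 5.68, 5.53, 4.96, 4.50 and 5.41 in obese rats, against 4.97, 5.75, 5.40, 4.64 and 4.76 in lean control rats. The highest Cry1 in each group was again in the rat with the highest Bmal1. Nfil3, the D-box repressor, was 5.90, 4.80, 6.34, 6.22 and 6.40 in rosiglitazone rats and 6.28, 5.80, 5.37, 6.77 and 6.21 in resveratrol rats. It was 6.31, 5.75, 6.02, 5.73 and 5.71 in obese rats, against 6.44, 6.79, 6.35, 6.12 and 6.26 in lean control rats. Obese rats 2 to 5 lay below every lean control rat in Nfil3, and obese rat 1 lay above lean control rats 4 and 5.

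Dbp, the D-box activator, spread over 3.28 log2 units (9.69-fold). Its level was 8.33, 8.58, 5.74, 7.78 and 6.76 in rosiglitazone rats 1 to 5 and 6.72, 8.68, 8.60, 5.67 and 7.86 in resveratrol rats. It was 5.83, 7.53, 8.36, 8.36 and 7.38 in obese rats, against 8.95, 6.57, 7.72, 8.66 and 8.88 in lean control rats. The rat with the lowest Dbp in each group was the one with the highest Bmal1. Per3, a member of the Period family, spread over 3.14 log2 units (8.82-fold). Its lowest liver, obese rat 1, lay 0.999 above the median of its array, so this fold may be compressed. The level of Per3 was 5.68, 5.95, 3.79, 5.20 and 4.67 in rosiglitazone rats and 4.76, 5.84, 5.54, 3.53 and 5.49 in resveratrol rats. It was 3.42, 5.60, 5.75, 5.56 and 5.16 in obese rats, against 6.45, 4.67, 5.43, 6.12 and 6.56 in lean control rats. The lowest Per3 in each group was in the same rat as the lowest Dbp.

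**Figure D1:**
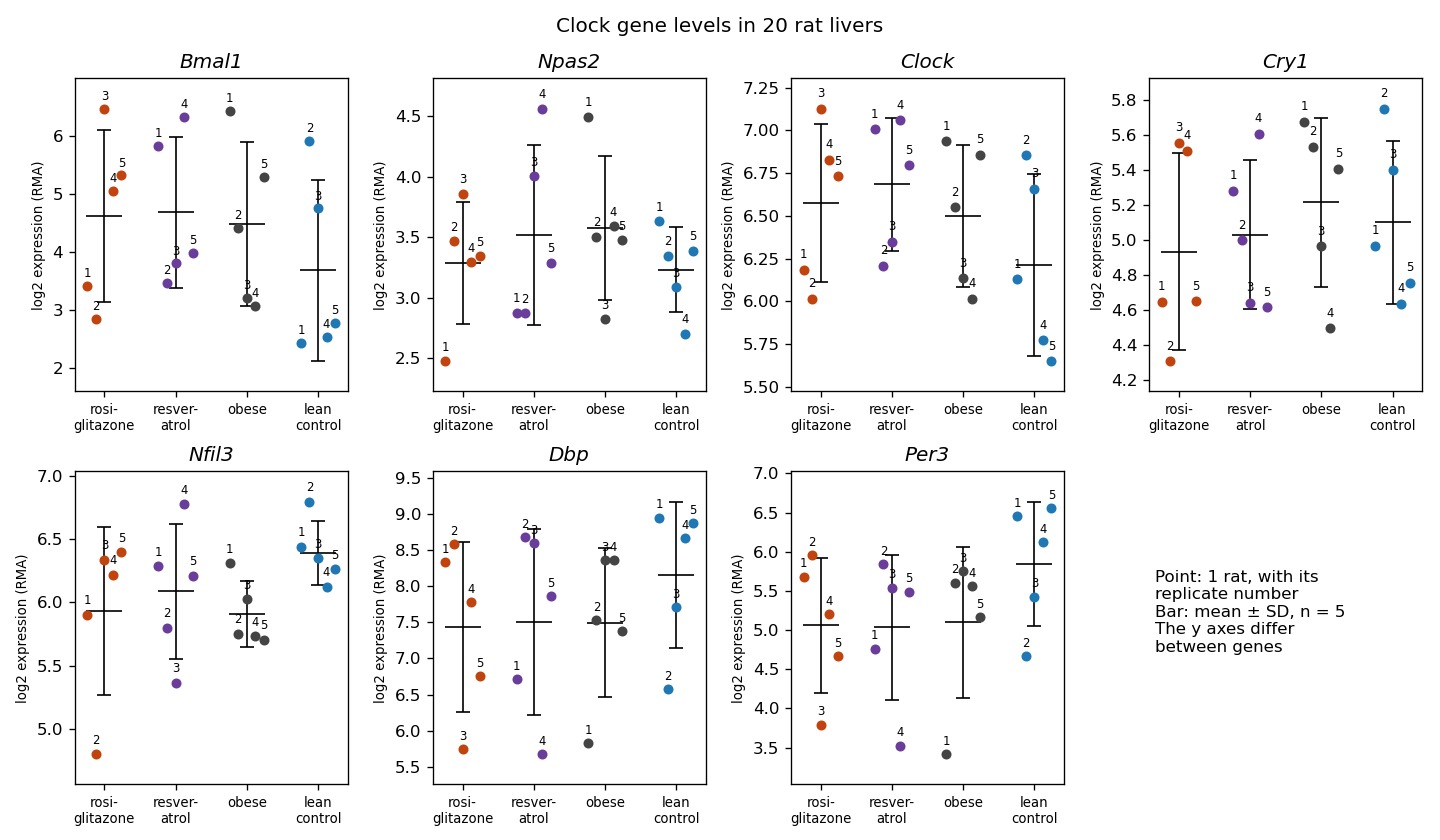
Log2 expression of the 7 clock genes by group, from rosiglitazone at the left through resveratrol and obese to lean control. Each point is 1 rat with its replicate number, the cross line and bars are the mean ± SD (n = 5), and the y axes differ between genes. In every group the rat highest in Bmal1 (rosiglitazone 3, resveratrol 4, obese 1, lean control 2) is the lowest in Dbp and in Per3.

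The spread of these genes between rats of the same group stood high among all genes. The within-group SD was 1.44 for Bmal1, 1.14 for Dbp, 0.89 for Per3 and 0.57 for Npas2, against a median of 0.24 over all 9481 genes. Cry1, Nfil3 and Clock had SDs of 0.49, 0.46 and 0.45. As a description, Bmal1 stood at percentile 99.97 of the tested genes by this SD, Dbp at 99.9 and Per3 at 99.7, and the lowest of the 7, Clock, at 95.3. Differences between the group means held 5.25% (Cry1) to 18.2% (Nfil3) of a gene's variance, so most of it lay between rats of the same group. By limma's F test over the 4 groups, 0 of the 7 genes changed (unadjusted p 0.252 to 0.776, adjusted p 0.534 to 0.890), where 5.01% of all genes did.

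Within a group, the rats fell in nearly the same order by several of the genes. In the rosiglitazone group the rats ran 2, 1, 4, 5, 3 when sorted upward by Bmal1, and in the same order when sorted downward by Dbp and by Per3. In the resveratrol group they ran 2, 3, 5, 1, 4 in all of these sortings and also upward by Clock. Obese rats ran 4, 3, 2, 5, 1 upward by Bmal1 and 3, 4, 2, 5, 1 downward by Dbp, where rats 3 and 4 were level to the second decimal. Lean control rats ran 1, 4, 5, 3, 2 upward by Bmal1 and 1, 5, 4, 3, 2 downward by Dbp. Downward by Per3, obese rats ran 3, 2, 4, 5, 1 and lean control rats 5, 1, 4, 3, 2, which differed in part from the orders by Bmal1. Upward by Clock, obese rats ran as by Bmal1, while rosiglitazone rats ran 2, 1, 5, 4, 3 and lean control rats 5, 4, 1, 3, 2.

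Correlations were computed over the 20 livers after removing each group's mean, so that only differences between rats of the same group counted. A two-sided permutation test shuffled rats within groups 100000 times, and p-values were adjusted over the 21 pairs of genes. Of these pairs, 17 passed, 7 with a positive and 10 with a negative r. Among all 44939940 pairs of tested genes, 4.65% had an absolute r at or above the lowest r that passed (0.519). The median absolute r was 0.740 over the 21 pairs and 0.187 over all pairs of tested genes. All values of a pair come from the same arrays, and the genes were chosen with earlier results of these data known, so these p-values are not independent evidence.

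Bmal1 and Dbp ran opposite to each other, with r = −0.954 and rho = −0.911 (n = 20, permutation p = 1e-05 for each, the smallest that 100000 shuffles can give, adjusted p = 3.5e-05). Without the 2 livers farthest from the median of Bmal1 (lean control rat 2 and obese rat 1) r was −0.934, and it stayed between −0.968 and −0.946 when each liver was left out in turn. Bmal1 and Per3 gave r = −0.923 and rho = −0.893 (permutation p = 1e-05 each, adjusted p = 3.5e-05), and −0.901 without the same 2 livers. Dbp and Per3, both E-box targets, rose and fell together across rats, with r = 0.968 and rho = 0.932 (permutation p = 1e-05 each, adjusted p = 3.5e-05) and r = 0.948 without rosiglitazone rat 3 and resveratrol rat 4.

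On the side of Bmal1, Clock followed it with r = 0.938 and rho = 0.908 (permutation p = 1e-05 each, adjusted p = 3.5e-05) and 0.925 without the 2 farthest livers. Cry1 followed with r = 0.864 (permutation p = 7e-05, adjusted p = 0.00021) and rho = 0.794 (permutation p = 0.00032), and r = 0.828 without those livers. Cry1 thus ran with Bmal1 and against Per3, another repressor (r = −0.740, permutation p = 0.00076, rho = −0.654, permutation p = 0.00587, adjusted p = 0.00114, and r = −0.640 without lean control rat 2 and rosiglitazone rat 3). Nfil3 ran with Bmal1 (r = 0.700, permutation p = 0.0004, rho = 0.666, permutation p = 0.00176, adjusted p = 0.0007, and r = 0.653 without the 2 farthest livers). It ran against Dbp, the activator at the D-boxes that NFIL3 represses (r = −0.745, permutation p = 0.00046, rho = −0.779, permutation p = 0.00065, adjusted p = 0.000743, and r = −0.810 without rosiglitazone rat 2 and resveratrol rat 3).

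Of the 5 relations of Nfil3 that passed, 3 also passed with the group means left in. Its r was then 0.495 with Bmal1 (adjusted p = 0.0347, permutation test), 0.568 with Cry1 (0.0124) and −0.535 with Dbp (0.0228). Those with Clock (r = 0.447, adjusted p = 0.0587) and Per3 (r = −0.442, adjusted p = 0.0591, permutation test) no longer passed. Cry1 with Nfil3 (r = 0.639, rho = 0.632, permutation p = 0.0035 and 0.00524, adjusted p = 0.0049) was at r = 0.573 without lean control rat 2 and rosiglitazone rat 3 and no longer passed (adjusted p = 0.0519). The other 6 pairs among Clock, Cry1, Nfil3, Dbp and Per3 passed, with absolute r from 0.688 (Clock with Nfil3) to 0.874 (Clock with Dbp), absolute rho from 0.683 to 0.886 and adjusted p up to 0.0007 (permutation test). Without the 2 livers farthest in the gene named earlier in each pair, their absolute r was 0.669 to 0.871.

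Npas2 stood apart from the other genes. Its values were low (0.0585 to 2.17 above the array median), where compression touches them, and the part of this in its correlations was not tested. Its r with Bmal1 was 0.456 (rho = 0.337, permutation p = 0.0567 and 0.166, adjusted p = 0.0661, and r = 0.357 without the 2 farthest livers), and 2 of its 6 pairs passed, those with Dbp (r = −0.519, rho = −0.386, permutation p = 0.04 and 0.151, adjusted p = 0.0494) and Per3 (r = −0.595, rho = −0.374, permutation p = 0.0158 and 0.14, adjusted p = 0.0208). Both rested on resveratrol rat 4 and obese rat 1, without which r was −0.178 with Dbp and −0.220 with Per3 (adjusted p = 0.598 and 0.518, permutation test), and neither passed by rho.

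**Figure D2:**
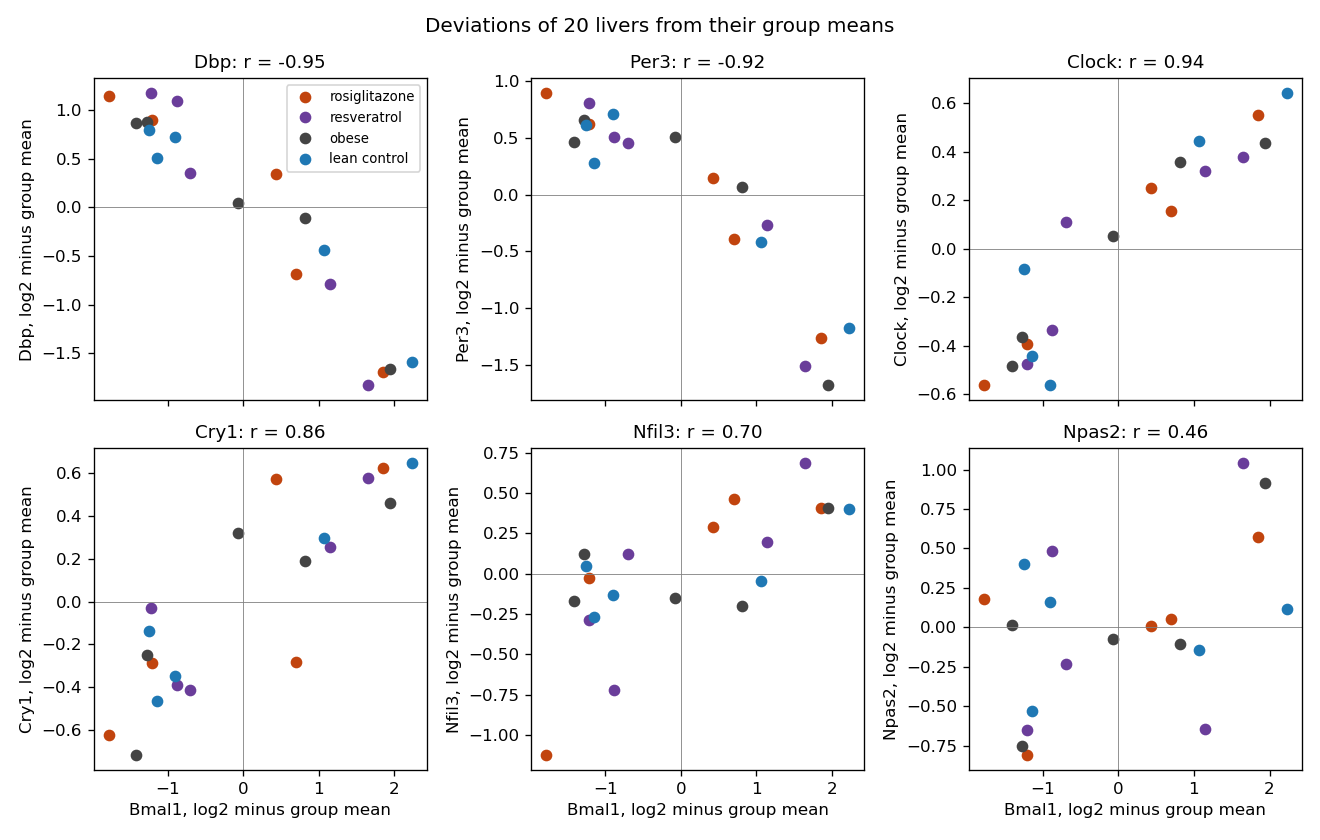
Deviation of each gene from its group mean (y axis, log2) against that of Bmal1 (x axis, log2) in 20 livers, coloured by group, with Pearson r over each panel. Dbp and Per3 fall as Bmal1 rises (r −0.95 and −0.92), Clock, Cry1 and Nfil3 rise with it (0.94, 0.86 and 0.70), and Npas2 is scattered (0.46).

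**Figure D3:**
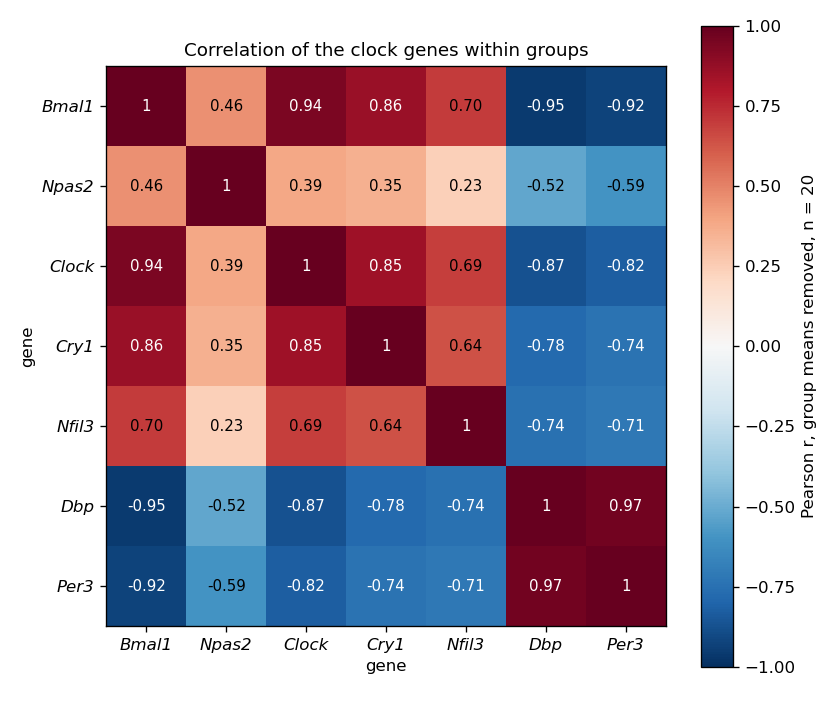
Pearson r between the 7 clock genes over 20 livers with group means removed, with red for positive and blue for negative values. Bmal1, Clock, Cry1 and Nfil3 form a block of positive r from 0.64 to 0.94, Dbp and Per3 pair at 0.97, and the r between these blocks lie from −0.71 to −0.95.

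The genes were near the head of all tested genes by likeness to Bmal1. Ranked by absolute r among the 9480 other tested genes, Dbp was at place 3, Clock at 5, Per3 at 11, Cry1 at 32, Nfil3 at 319 and Npas2 at 1756, and the median absolute r with Bmal1 was 0.236. Ranked by absolute r with Dbp, Per3 was at place 1 and Bmal1 at place 3. An absolute r of at least 0.85 was reached by 43 genes with Bmal1 and by 39 with Dbp.

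Of genes outside the 7, those most like Bmal1 were Lgalsl, a galectin-like protein (r = 0.969), the atypical protein kinase C gene Prkci (0.935), Clpx, a subunit of the mitochondrial ClpXP protease (0.933), Tmem140 (0.928) and the tight junction gene Cldn1 (0.927). The genes that ran most opposite to Bmal1 were Hsd17b2, which inactivates oestradiol and testosterone (r = −0.969), the drug efflux pump Abcb1a (−0.952), the solute carrier Slc16a12 (−0.928), Dpy19l3 (−0.885) and the transcription factor Hes6 (−0.877). Hsd17b2, Abcb1a and Slc16a12 also led the genes most like Dbp outside the 7 (r = 0.962, 0.919 and 0.901), ahead of Lin52 (0.894) and the racemase Amacr (0.884). Most opposite to Dbp were the lactate transporter Slc16a1 (−0.950), Lgalsl (−0.930), Btg1 (−0.926), Clpx (−0.925) and Dapk1 (−0.922). These r over 20 livers were picked from all tested genes on the same arrays and are a description with no test.

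The comparisons of groups asked whether the level of these genes differed with obesity or with treatment. By limma, 0 of the 7 genes changed in any of 6 comparisons at an adjusted p under 0.05 over all genes, and 0 had an unadjusted p under 0.05. Of all genes, an unadjusted p under 0.05 was reached by 12.2% in rosiglitazone against obese, 5.33% in resveratrol against obese, 11.9% in rosiglitazone against resveratrol, 15.5% in rosiglitazone against lean control, 20.4% in resveratrol against lean control and 17.4% in obese against lean control livers. For every gene of the 7 the groups overlapped in each comparison, where 3.91%, 1.18%, 3.34%, 3.25%, 4.59% and 3.53% of all genes had groups that did not, in the same order of comparisons. The intervals were wide, and each interval of Bmal1, Dbp and Per3 held a difference of 1 or of −1. A p that misses the threshold does not show equal levels.

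In rosiglitazone against obese livers, where 1.5% of all genes changed, Bmal1 averaged 4.62 ± 1.48 in rosiglitazone and 4.48 ± 1.42 in obese livers (SD, n = 5 each), a log2 difference of 0.14 (SE 0.79, 95% interval −1.51 to 1.78, limma adjusted p = 0.978). Dbp averaged 7.44 ± 1.18 in rosiglitazone and 7.49 ± 1.03 in obese livers, a difference of −0.05 (−1.35 to 1.24). The largest differences of the 7 genes were −0.29 for Npas2 and −0.28 for Cry1. The median absolute difference of the 7 genes was 0.08, and that of all tested genes 0.12. In resveratrol against obese livers, where 0.0105% of all genes changed, Bmal1 averaged 4.68 ± 1.30 in resveratrol livers (difference 0.20, −1.45 to 1.85, limma adjusted p = 0.994), and Dbp 7.51 ± 1.29 (difference 0.01, −1.29 to 1.31). The median absolute difference in resveratrol against obese livers was 0.18 for the 7 genes and 0.11 for all tested genes. Per3 averaged 5.06 ± 0.86 in rosiglitazone, 5.03 ± 0.93 in resveratrol and 5.10 ± 0.97 in obese livers. In rosiglitazone against resveratrol livers, where 0.886% of all genes changed, differences ran from −0.23 for Npas2 (3.29 ± 0.51 in rosiglitazone and 3.52 ± 0.74 in resveratrol livers) to 0.03 for Per3.

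Against lean control livers the differences of Bmal1, Clock, Nfil3, Dbp and Per3 were wider. Those of Cry1 were not (−0.17 in rosiglitazone, −0.07 in resveratrol and 0.11 in obese livers), nor was that of Npas2 in rosiglitazone livers (0.06). Of all genes, 1.81% changed in obese, 2.42% in rosiglitazone and 4.74% in resveratrol livers. Bmal1 averaged 4.62 in rosiglitazone, 4.68 in resveratrol and 4.48 in obese livers, against 3.69 ± 1.57 in lean controls (SD, n = 5), and differed by 0.94 in rosiglitazone (95% interval −0.71 to 2.58), 0.999 in resveratrol (−0.65 to 2.65) and 0.80 in obese livers (−0.85 to 2.45). The SE was 0.79 each time and limma's adjusted p was 0.633, 0.519 and 0.662. These 3 comparisons share the same 5 lean rats, so they are not independent of each other. Lean control rats 1, 4 and 5 held the lowest Bmal1 values of all 20 livers, and lean control rats 2 and 3 lay among the other groups.

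Dbp averaged 7.44 in rosiglitazone, 7.51 in resveratrol and 7.49 in obese livers, against 8.16 ± 1.01 in lean controls, and differed by −0.72 in rosiglitazone, −0.65 in resveratrol and −0.66 in obese livers (SE 0.63 each). Per3 averaged 5.06 in rosiglitazone, 5.03 in resveratrol and 5.10 in obese livers, against 5.84 ± 0.79 in lean controls, and differed by −0.79 in rosiglitazone, −0.81 in resveratrol and −0.75 in obese livers (SE 0.49 each), with limma adjusted p of 0.478, 0.373 and 0.468. Clock averaged 6.58 ± 0.46, 6.68 ± 0.39 and 6.50 ± 0.42 in rosiglitazone, resveratrol and obese livers, against 6.21 ± 0.53 in lean control livers. Its difference in resveratrol livers (0.47, −0.07 to 1.01) had the lowest adjusted p of all 42 differences (limma, 0.314). Nfil3 averaged 5.93 ± 0.66 in rosiglitazone, 6.09 ± 0.53 in resveratrol and 5.91 ± 0.26 in obese livers, against 6.39 ± 0.25 in lean control livers. Its difference in obese livers was −0.49 (−1.03 to 0.06, limma adjusted p = 0.353). Cry1 averaged 4.94 ± 0.56 in rosiglitazone, 5.03 ± 0.42 in resveratrol and 5.22 ± 0.48 in obese livers, against 5.10 ± 0.46 in lean control livers, and Npas2 averaged 3.58 ± 0.60 in obese against 3.23 ± 0.35 in lean control livers.

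The median absolute difference of the 7 genes was 0.46 in rosiglitazone, 0.47 in resveratrol and 0.49 in obese livers against lean controls, where that of all tested genes was 0.14, 0.16 and 0.15. The 7 genes also spread more within groups than most genes (percentile 95.3 or higher by SD), and most of them move together. These medians therefore do not show a larger shift of the clock genes. Without lean control rat 3, which lay among the obese rats on the first principal component, the difference of Bmal1 was 1.20, 1.27 and 1.07. No gene of the 7 passed. That rat was singled out on these same arrays, and its Bmal1 (4.75) was above the lean control mean (3.69). Leaving it out therefore widens the difference, which is no added support. With each rat left out in turn, the difference of Bmal1 ran from 0.47 to 1.49, 0.59 to 1.56 and 0.31 to 1.36. Ordered by mean, Bmal1 ran resveratrol, rosiglitazone, obese, lean control, and no neighbours in that order differed beyond their spread. Whether the groups were killed at different hours is not stated, so hour and group cannot be told apart.

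**Figure D4:**
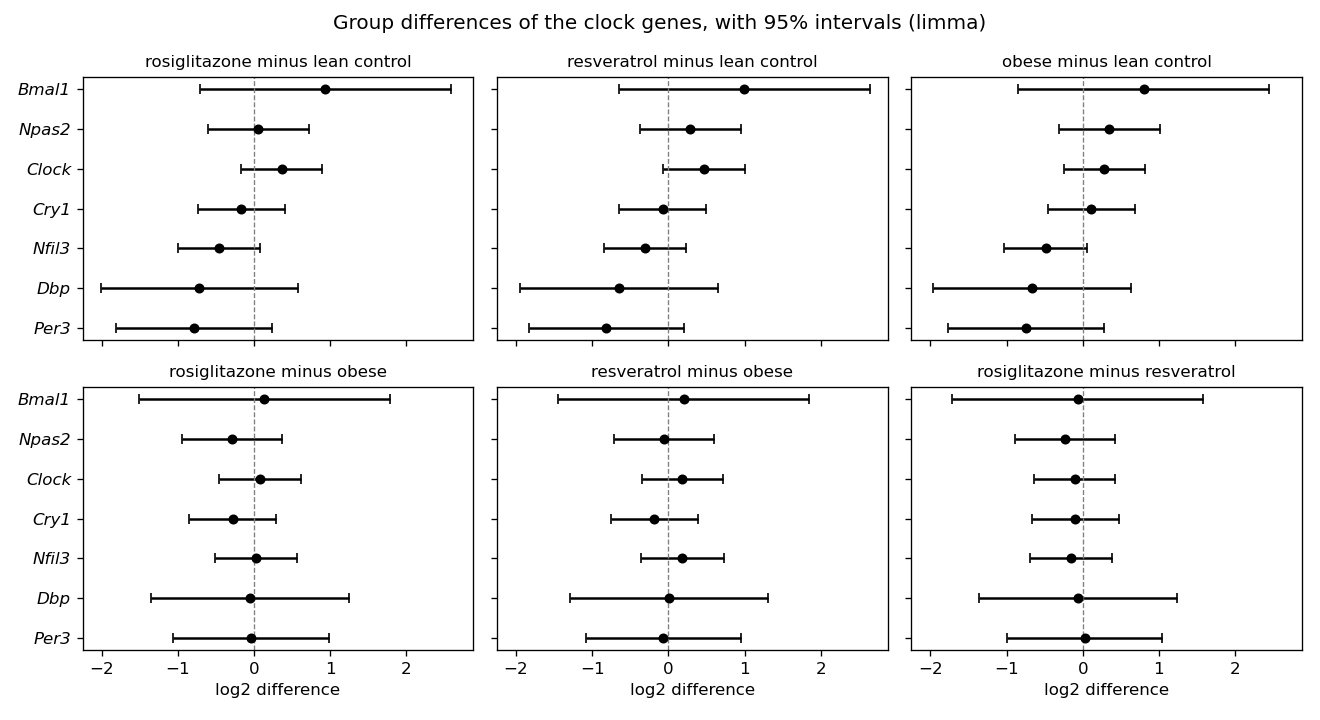
Log2 differences of the 7 clock genes in 6 comparisons (x axis), with 95% intervals from limma, n = 5 rats a group, and the dashed line at 0. All 42 intervals include 0, and the widest belong to Bmal1.

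Of 17 other clock genes listed, 5 were named by a single symbol and tested, which leaves the REV-ERB and ROR genes not analysed here. Of the Period genes, Per1 was lower in rosiglitazone and in resveratrol livers than in lean controls and Per2 in rosiglitazone livers, and 0 of the 5 changed in the other 4 comparisons by limma (1 had an unadjusted p under 0.05 in obese against lean control, 1 in rosiglitazone against obese, 2 in rosiglitazone against resveratrol and 0 in resveratrol against obese livers). Per1, a light- and hormone-responsive Period gene, averaged 5.13 ± 0.53 in rosiglitazone and 4.97 ± 0.41 in resveratrol livers, against 6.10 ± 0.44 in lean control livers. It fell by 0.97 in rosiglitazone (SE 0.24, limma adjusted p = 0.0341) and by 1.13 in resveratrol livers (adjusted p = 0.0123). Per2 averaged 4.61 ± 0.55 in rosiglitazone livers, against 5.49 ± 0.09 in lean control livers, with no overlap between the groups (3.25% of all genes did not overlap in this comparison). It fell by 0.87 (SE 0.20, limma adjusted p = 0.0205). In resveratrol livers Per2 averaged 5.06 ± 0.32 and differed by −0.43 from lean controls, which did not pass (limma adjusted p = 0.232). In obese livers Per1 differed by −0.63 from lean controls (limma adjusted p = 0.163), and by −0.81 without lean control rat 3, when it passed (adjusted p = 0.0441). That rat lay among the obese rats on the first principal component of these same arrays, so this call is no added support. With each rat left out in turn, the difference ran from −0.81 to −0.54.

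The call of Per1 in rosiglitazone livers was lost in 7 of 10 fits that left out a rat of either group (limma adjusted p up to 0.0981), while that in resveratrol livers held in all 10. The call of Per2 was lost without lean control rat 4, rosiglitazone rat 3 or rosiglitazone rat 5 (limma adjusted p up to 0.0676). With only the compared groups in the fit, Per1 (limma adjusted p = 0.0912) and Per2 (0.0685) did not pass in rosiglitazone livers.

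Of 12 clock output genes listed, 8 were named and 7 tested, and 3 were lower against lean controls in at least 1 group. By limma, 2 of 7 changed in rosiglitazone, 3 in resveratrol and 1 in obese livers, where 2.42%, 4.74% and 1.81% of all genes did. An unadjusted p under 0.05 was reached by 4 of 7 in each, and by 15.5%, 20.4% and 17.4% of all genes. In the comparisons without lean controls 0 changed. Coq10b, a coenzyme Q binding protein, averaged 5.98 ± 0.32 in rosiglitazone, 6.13 ± 0.18 in resveratrol and 5.94 ± 0.66 in obese livers, against 7.35 ± 0.72 in lean control livers. It fell by 1.38, 1.22 and 1.41 in these groups (SE 0.30 each, limma adjusted p = 0.0116, 0.0222 and 0.0196). Noct, the circadian enzyme nocturnin, averaged 5.38 ± 0.38 in rosiglitazone, 5.47 ± 0.30 in resveratrol and 5.46 ± 0.77 in obese livers, against 6.59 ± 0.60 in lean control livers. It passed in rosiglitazone and resveratrol livers (limma adjusted p = 0.0381 and 0.0390) and not in obese livers (0.0586). Cyp7a1, the rate-limiting enzyme of bile acid synthesis, averaged 6.86 ± 0.64 in resveratrol livers, against 8.43 ± 0.74 in lean control livers, and fell by 1.56 (SE 0.37, limma adjusted p = 0.0199).

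Several of these calls were lost when a single rat was left out, while the differences kept their sign. Coq10b passed in rosiglitazone livers whichever rat was left out. It was lost in obese livers without lean control rat 1 or 4 (limma adjusted p up to 0.0612) or with only the compared groups in the fit (0.0816), and in resveratrol livers without lean control rat 1, 4 or 5 (0.0691). Noct was lost in 8 of 10 such fits in rosiglitazone and in 8 of 10 in resveratrol livers. Its difference stayed between −1.47 and −1.07 in rosiglitazone and between −1.38 and −0.99 in resveratrol livers. In rosiglitazone livers the call of Noct was also lost with array weights or a replicate block (limma adjusted p up to 0.0799). Cyp7a1 was lost without lean control rat 1 or 4 or resveratrol rat 1 or 4 (limma adjusted p up to 0.0620), with differences between −1.85 and −1.35. Without lean control rat 3, Noct (−1.39, limma adjusted p = 0.00684) and Cyp7a1 (−1.38, adjusted p = 0.0246) passed in obese livers too. That rat lay among the obese rats on the first principal component of these same arrays, so these calls are no added support. With each rat left out in turn, the obese difference ran from −1.39 to −0.83 for Noct and from −1.38 to −0.88 for Cyp7a1. Of 7 genes that respond to systemic time cues (glucocorticoid and temperature), 5 were tested and 0 changed in any comparison by limma (1 had an unadjusted p under 0.05 in rosiglitazone against lean control, 1 in rosiglitazone against obese and 1 in rosiglitazone against resveratrol livers).

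Some of these listed genes moved with Bmal1 between rats of the same group. Over the 17 listed genes tested, with p-values adjusted over these 17 relations, 7 passed, with absolute r of 0.623 or more. Of the 9480 other tested genes, 6.49% had an absolute r with Bmal1 as high. Per1 ran against Bmal1 with r = −0.761 and rho = −0.782 (permutation p = 0.00046 and 0.00017, adjusted p = 0.00196), and r = −0.812 without the 2 livers farthest in Bmal1. Cry2, a second cryptochrome, ran against it with r = −0.658 and rho = −0.648 (permutation p = 0.00531 and 0.0053, adjusted p = 0.015). Its r was −0.528 without the 2 farthest livers (permutation p = 0.0684). Cry1 and Cry2 had opposite signs of r with Bmal1, a difference that was not tested. Per2, with r = −0.508 (rho = −0.492, permutation p = 0.0343 and 0.0424, adjusted p = 0.0728), did not pass.

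Among the time cue genes, the cold-inducible RNA-binding protein genes Cirbp (r = −0.800, rho = −0.808) and Rbm3 (r = −0.802, rho = −0.762) ran against Bmal1 (permutation p = 0.00023 and 0.00013 for Cirbp and 9e-05 and 0.00013 for Rbm3, adjusted p = 0.00187 and 0.00153), with r = −0.752 and −0.687 without the 2 farthest livers. Hsph1, a heat shock protein gene induced by warmth, ran with Bmal1 (r = 0.766, rho = 0.811, permutation p = 0.00033 and 0.00013, adjusted p = 0.00187, and r = 0.677 without them). The glucocorticoid-induced genes Fkbp5 (r = 0.235) and Zbtb16 (r = 0.128) did not pass (adjusted p = 0.414 and 0.645, permutation test). Of the output genes, Coq10b (r = −0.720, rho = −0.657, permutation p = 0.00143 and 0.00709, adjusted p = 0.00486, r = −0.594 without the 2 livers) and Cyp7a1 (r = −0.623, rho = −0.595, permutation p = 0.00949 and 0.0134, adjusted p = 0.023, r = −0.631) ran against Bmal1.

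**Figure D5:**
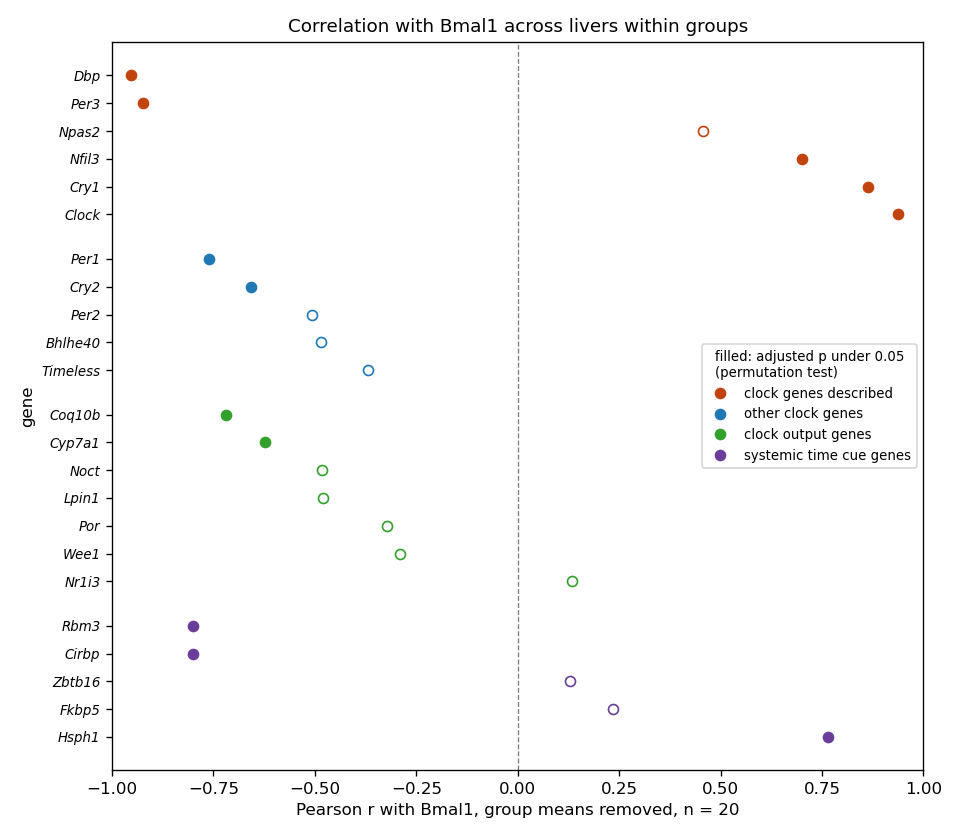
Pearson r with Bmal1 over 20 livers with group means removed (x axis) for the other 6 clock genes described and 17 listed genes, with filled points for an adjusted p under 0.05 by the permutation test. Of the filled points, Clock, Cry1, Nfil3 and Hsph1 lie to the right of 0, and Dbp, Per3, Per1, Cry2, Coq10b, Cyp7a1, Rbm3 and Cirbp to the left.

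Because the rats of a group differed this much, the group comparisons were also fitted with each liver's Bmal1 level as a covariate, a choice made after seeing the data. The other 6 genes then changed in 0 comparisons. Of their 36 differences, 5 had an unadjusted p under 0.05 (limma), 3 of Nfil3 and 2 of Cry1, all against lean controls. The share of all genes at that unadjusted threshold was not taken for this fit, so the count is a description only. Without the covariate that share was 15.5% in rosiglitazone, 20.4% in resveratrol and 17.4% in obese livers against lean controls. Of all genes, 1.87% changed in rosiglitazone against obese, 0.0105% in resveratrol against obese, 1.15% in rosiglitazone against resveratrol, 2.31% in rosiglitazone against lean control, 3.71% in resveratrol against lean control and 2.22% in obese against lean control livers in this fit. Nfil3 came closest, at −0.67 in obese (SE 0.20, limma adjusted p = 0.0831), −0.67 in rosiglitazone (0.0933) and −0.53 in resveratrol livers (0.151) against lean controls. Per1 passed in rosiglitazone (−0.76, limma adjusted p = 0.0210) and resveratrol livers (−0.91, 0.0116), Per2 in rosiglitazone livers (−0.76, 0.0328) and Coq10b in all 3 groups against lean controls, while Noct passed in none. Cirbp was higher in rosiglitazone than in lean control livers in this fit (0.61, limma adjusted p = 0.0255), and Cyp7a1 was lower in resveratrol livers (−1.28, 0.0251). Bmal1 in lean control rats 1, 4 and 5 lay at −0.0978, 0.16 and 0.35 relative to the array median, where values are compressed. This limits the covariate in the comparisons with lean controls.

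Cell type markers were set beside Bmal1 in the same way, since in bulk tissue fewer cells of a type and less RNA per cell cannot be told apart. Mean levels of 6 marker lists and the array median were compared with Bmal1 within groups, and 0 of these 7 relations passed. The endothelial list was the closest, with r = 0.532 and rho = 0.477 (permutation p = 0.0268 and 0.0552, adjusted p = 0.188, and r = 0.565 without the 2 farthest livers), and hepatocyte markers gave r = −0.229 (adjusted p = 0.538, permutation test). Between groups, markers also moved in the comparisons with lean controls in which Per1, Per2, Coq10b, Noct and Cyp7a1 passed. Of 4 endothelial markers, Lyve1 and Tek were lower in resveratrol and Cdh5 and Lyve1 in obese livers, and 0 changed in rosiglitazone livers by limma (4, 4 and 2 had an unadjusted p under 0.05). Endothelial list means ran from 5.12 to 5.72 in rosiglitazone, 5.20 to 5.43 in resveratrol and 5.15 to 5.46 in obese livers, against 5.70 to 5.99 in lean control livers. Of 9 macrophage markers, Cd5l and Marco were higher in rosiglitazone, C1qa and Clec4f lower in resveratrol and C1qa and Cd5l lower in obese livers than in lean controls (5, 6 and 8 had an unadjusted p under 0.05). Macrophage list means ran from 5.80 to 6.31 in rosiglitazone, 5.11 to 5.40 in resveratrol and 4.91 to 5.21 in obese livers, against 5.15 to 5.87 in lean control livers. Macrophage markers were also higher in rosiglitazone than in obese livers in 8 of 9 cases and than in resveratrol livers in 6 of 9. The part of these markers in the values of the clock and output genes was not tested.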

How the data were processed

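Total RNA (100 ng per liver) from frozen tissue, extracted with TRIzol and RNeasy columns, was hybridised to 1 Affymetrix array per rat. The deposited values of 36685 probe sets are log2 expression, made by the authors with RMA (background correction, quantile normalisation and a summary over probes). The sources used here do not give its version. Precision is limited by the number of arrays. Names came from the platform annotation: 14824 probe sets had 1 gene symbol and 829 had several (not used). The highest-mean probe set stood for a gene. Genes above the array's percentile 50 in at least 5 arrays were tested (9481).

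The 4 group means were fitted in limma 3.58.1 (R 4.3.3) over all 20 arrays without covariates, which left 16 residual degrees of freedom and gave 5.40 prior ones. Tests were two-sided, and p-values were adjusted over all 9481 genes by the Benjamini-Hochberg method, with a threshold of 0.05. Correlations used numpy 2.4.6 and scipy 1.17.1 in Python 3.11.15, and figures matplotlib 3.10.9. The scripts were tested on simulated data. The named genes were the 7 clock genes, every listed gene called in a comparison, up to 4 per list by smallest p, and the 5 genes highest and 5 lowest in r with Bmal1 and with Dbp, leaving out microRNAs, odour and vomeronasal receptors and unnamed or predicted loci. The genes and lists were chosen with earlier results of these data known.

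Alternatives covered the filter (none, or percentile 75), quantile normalisation repeated, centring on array medians, only the compared groups, array weights, a mean-variance trend, a block for the replicate number, probe set choice, an adjusted p under 0.01, Spearman's rho, group means left in and leaving out arrays. Bmal1 as a covariate was added after seeing the data. The labels do not say whether replicate numbers pair the rats, and the main fits treat them as unpaired.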

Additional observations from a re-analysis of the deposited data

Results flagged for a closer look

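Per3 in obese rat 1 was 3.42, and the other obese rats lay at 5.16 to 5.75. Its gap to the nearest of them was 0.747 of the group's range, above Dixon's critical value of 0.71 for 5 samples. This was the only such value among 28 sets of 5 rats (7 genes in 4 groups), where chance gives about 1 in 20. The same rat held the highest Bmal1 (6.43) and the lowest Dbp (5.83) of its group.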

How the results depend on the processing

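The count of clock genes that changed stayed at 0 in all 6 comparisons under every alternative run, and the lowest adjusted p of any of the 42 differences was 0.145 (limma) outside the covariate fit. The number of pairs that passed was 17 with arrays centred, normalised again or with a replicate block, 15 by Spearman's rho, 15 with group means left in, 14 without the 2 farthest livers and 15 to 19 with each liver left out. Over all tested genes, rats of the same number did not deviate together (mean r −0.02 over 30 pairs, 5 above 0.1, and 4 of 20 rats closest to their own number). The labels name no pairing, and a shared factor that touches few genes would not show in this check. With the replicate block the call of Per1 in rosiglitazone and of Noct in rosiglitazone and resveratrol livers against lean controls was lost. With array weights that of Noct in rosiglitazone livers was lost.

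Small differences changed sign. Dbp in resveratrol against obese livers was −0.0668 with array weights. With Bmal1 as a covariate, rosiglitazone against obese livers gave −0.00328 for Nfil3, 0.0477 for Dbp and 0.0373 for Per3, resveratrol against obese 0.0482 for Per3, obese against lean control −0.120 for Cry1, rosiglitazone against lean control −0.111 for Npas2, resveratrol against lean control 0.0987 for Dbp and rosiglitazone against resveratrol −0.0110 for Per3. With each rat left out, 19 differences, none above 0.23 in size, changed sign. In rosiglitazone against obese livers they ran from −0.33 to 0.62 for Bmal1, −0.0593 to 0.22 for Clock, −0.0889 to 0.31 for Nfil3, −0.47 to 0.37 for Dbp and −0.46 to 0.28 for Per3. In resveratrol against obese livers they ran from −0.21 to 0.69 for Bmal1, −0.32 to 0.17 for Npas2, −0.40 to 0.47 for Dbp and −0.49 to 0.31 for Per3. In rosiglitazone against resveratrol livers they ran from −0.53 to 0.38 for Bmal1, −0.395 to 0.0278 for Npas2, −0.24 to 0.0341 for Clock, −0.25 to 0.0610 for Cry1, −0.33 to 0.13 for Nfil3, −0.52 to 0.36 for Dbp and −0.35 to 0.34 for Per3. Against lean controls they ran from −0.00346 to 0.29 (obese) and −0.22 to 0.0898 (resveratrol) for Cry1 and from −0.0866 to 0.26 (rosiglitazone) for Npas2. The cause of these changes was not tested. Low signal limits Npas2 and the lowest Bmal1 values and may limit the lowest Per3 values, since no background was measured.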
